A study of Mus musculus with 6 samples.

Results

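The granins and the enzymes that cut prohormones were followed as 10 genes: the granins Chga, Chgb, Scg2, Scg3 and Vgf, the convertases Pcsk1 and Pcsk2, their partners Pcsk1n and Scg5, and the carboxypeptidase Cpe. They were taken by gene symbol from the deposited count table, where all 10 had a row among 23845 genes. All 10 passed the filter on low counts, which left 13935 genes for testing. RNA had been sequenced from 6 libraries of mouse intestinal epithelial cells, 2 in each of 3 groups. EGFP cells came from C57BL6 mice with the genotype Neurog3+/-EGFP, which have 1 Neurog3 allele, and EYFP cells from mice of mixed C57BL6 and CD1 strain with the genotype Neurog3+/+EYFP, which have 2 and whose titles carry the word addon. In both of these groups cells expressing the Neurog3 reporter had been isolated by flow sorting. The third group was wild-type epithelium of C57BL6 mice, with titles that point to the duodenum and no mention of a sort. Not given in the sources used here are the age and sex of the mice, the number of mice behind a library and the gut segment of the sorted cells. Nothing says that the 2 libraries of a group came from separate mice, so p-values measure only the spread between these libraries.

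Enteroendocrine cells are the hormone-releasing cells of the gut epithelium, and Neurog3 is the factor that starts their differentiation. They make hormones as larger precursors and store them in dense-core granules. Granins are acidic proteins that aggregate in the trans-Golgi network, help to form the granule core and are themselves cut into peptides. Prohormone convertases cut the precursors after pairs of basic residues, and carboxypeptidase E then removes the basic residues left at the new ends. Pcsk1n encodes proSAAS, an inhibitor of the Pcsk1 product, and Scg5 encodes a chaperone needed for the Pcsk2 product to become active.

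Total estimated counts ran from 7938358 to 20589683 per library, and the 10 genes together held between 6269 and 863897 counts in a library. Levels are CPM, the counts scaled to 1000000 per library after TMM normalization, given for each library (replicate 1, then 2; n = 2 per group), and log2 fold changes carry their standard error (SE) from edgeR. A gene was called past the test at an edgeR adjusted p under 0.05, with adjustment over all genes tested. Neurog3 itself, whose reporter was used for the sort, read 563 and 348 CPM in EYFP and 120 and 179 CPM in EGFP. It was lowest in wild type (6.0 and 6.39 CPM). The sort selects cells that express the reporter, so these levels do not check the number of alleles. The 6 epithelial markers Epcam, Cdh1, Krt8, Krt18, Krt20 and Vil1 were all abundant, with the lowest value of 294 CPM for Krt18 in wild-type replicate 2. Against wild type, 2 were called lower and 1 higher in EGFP (21.9% and 19.6% of all genes). In EYFP 3 were called lower and 1 higher (33.5% and 27.1% of all genes). Between EYFP and EGFP only Epcam passed, at 0.553-fold in EYFP, where 19.4% of all genes were called lower. Xist read 966 and 969 CPM in EGFP, 0.634 and 2.36 CPM in EYFP, and 1.17 and 726 CPM in wild type. The Y-linked gene Ddx3y read 0 CPM in both EGFP libraries, 37.3 and 39.3 CPM in EYFP, and 62.4 and 0.121 CPM in wild type. Sex-linked transcripts, strain and reporter thus all differ between EGFP and EYFP cells and cannot be told apart from the number of alleles. The 2 wild-type libraries also differ in these transcripts, so they came from different mice and their spread holds a difference of sex.

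Within the 250 bases before the start sites used, 7 of these genes held a full cAMP response element or only its half-site. Of the upstream stretches 4 are shown, because 3 of them hold the full element and the fourth belongs to the most used marker, Chga. The full element, TGACGTCA, is the palindrome bound by CREB-type factors, and TGACG is its half-site, counted on both strands and also inside the full element. RefSeq promoter sequences of the GRCm38.p6 build were held for 8 of the 10 genes, all but Cpe and Vgf, and the 250 bases before the start site were searched. The full element was present for Chgb, Scg2 and Pcsk1, 3 of 8, against 1.55% of 32851 such windows over all genes. The half-site was present for 7 of the 8, with Pcsk1n as the exception, against 17.8% of windows. For Pcsk1 the start site used, 75089857, lies inside the span of the gene, which begins at 75089420. The same holds for Scg3, on the minus strand, with a start site of 75684056 and a span that ends at 75685959. The windows searched for Pcsk1 and Scg3 thus lie inside the spans of these genes. The last 120 bases before the start site follow, 5′ to 3′ on the gene's strand, with full elements and half-sites in capitals.
Chgb, chr2:132781522-132781641, plus strand: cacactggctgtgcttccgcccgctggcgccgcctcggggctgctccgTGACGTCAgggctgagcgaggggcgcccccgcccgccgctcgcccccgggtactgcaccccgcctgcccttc
Scg2, chr1:79440027-79440146, minus strand: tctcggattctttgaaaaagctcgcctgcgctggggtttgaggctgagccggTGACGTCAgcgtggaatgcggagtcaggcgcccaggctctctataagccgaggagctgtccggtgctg
Pcsk1, chr13:75089737-75089856, plus strand: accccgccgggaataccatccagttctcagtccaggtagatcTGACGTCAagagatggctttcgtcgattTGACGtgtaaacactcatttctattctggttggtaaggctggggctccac
Chga, chr12:102554821-102554940, plus strand: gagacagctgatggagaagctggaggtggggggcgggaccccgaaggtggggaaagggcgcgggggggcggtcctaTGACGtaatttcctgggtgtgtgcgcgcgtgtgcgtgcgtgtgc
The first base of the full element lies 72 bases before the start of Chgb, 68 before that of Scg2 and 78 before that of Pcsk1. Chga has only a half-site, 44 bases before its start, and Pcsk1 has a further half-site at 50 bases. The E-box CANNTG, the general site of Neurog3-type factors, was found for 6 of the 8 genes and in 66.2% of all windows, and its CAGATG form for 0 of the 8 against 14.4% of all windows. These matches describe letters in the window and not measured binding.

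Both reporter-sorted groups held far more of these transcripts than wild-type epithelium, and EYFP cells held the most. The 10 genes together took 0.0458% and 0.0477% of all counts in the wild-type libraries, 0.968% and 1.41% in the EGFP libraries, and 6.96% and 5.44% in the EYFP libraries. Chgb alone made up 5.39% and 3.87% of the EYFP libraries and had the highest count of any gene in both. In the bulk RNA used here, a larger share of endocrine cells and more RNA per cell cannot be told apart.

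**Figure D1:**
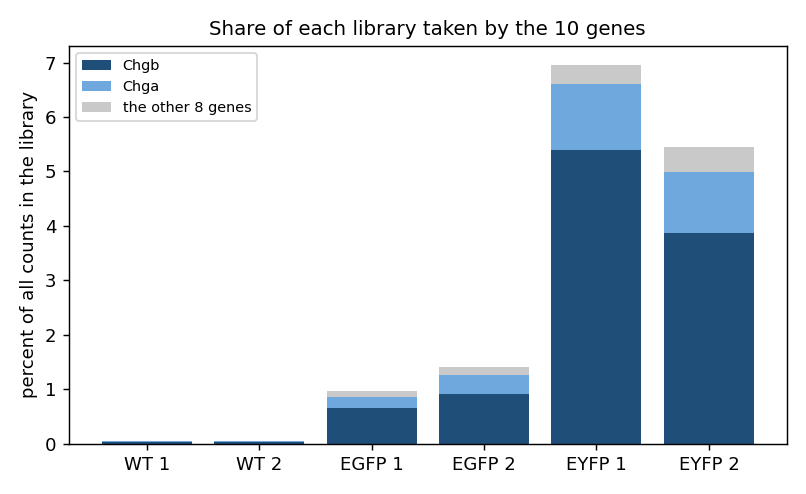
Stacked bars give the percent of all estimated counts in each of the 6 libraries that fell on Chgb, on Chga and on the other 8 genes. The bars reach 0.0458% and 0.0477% in wild type (WT), 0.968% and 1.41% in EGFP, and 6.96% and 5.44% in EYFP, and Chgb is the largest part in every library.

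Against wild type, all 10 genes were higher in EGFP cells and all 10 in EYFP cells. The fitted folds ran from 12.1 (Vgf) to 32.2 (Scg5) in EGFP cells and from 37.2 (Scg2) to 110 (Chgb) in EYFP cells. Of all genes tested, 19.6% were called higher in EGFP cells than in wild type and 27.1% in EYFP cells (41.5% and 60.6% in either direction). Both sorted libraries stood above both wild-type libraries for all 10 genes in each comparison, a pattern seen for 35.0% (EGFP) and 37.0% (EYFP) of all genes tested. The median log2 fold change of the 10 genes was 4.39 in EGFP and 6.13 in EYFP, beside medians over all genes tested of 0.00 and -0.12. The comparisons share the same wild-type libraries. In the authors' deposited table, all 10 genes also had an adjusted p under 0.05 in both comparisons, with folds from 12.3 to 33.6 for EGFP over wild type and from 41.6 to 121 for EYFP over wild type. Markers of absorptive enterocytes went the other way, with a summed level over 7 genes of 22534 and 36335 CPM in wild type and of 699 to 1407 CPM in the sorted libraries.

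EYFP cells were higher than EGFP cells for 7 of the 10 genes, namely Chga, Chgb, Scg3, Pcsk1, Pcsk1n, Cpe and Vgf, and 0 were lower. The rises ran from 2.36-fold (Scg3) to 5.38-fold (Pcsk1n). Scg2, Scg5 and Pcsk2 did not pass, with edgeR adjusted p of 0.79, 0.086 and 0.24. Of all genes tested, 16.8% were called higher in this comparison and 36.2% in either direction. The median log2 fold change of the 10 genes was 1.77, beside 0.01 over all genes tested. Both EYFP libraries stood above both EGFP libraries for 8 of the 10 genes, a pattern seen for 37.3% of all genes tested. The authors' deposited table also gave 7 of the 10 an adjusted p under 0.05, with Scg2 at 0.86, Scg5 at 0.11 and Pcsk2 at 0.3. With the replicate number as a block, 8 genes passed, since Scg5 was added. Without EGFP replicate 1 the set changed, with Scg5 in and Chgb out (log2 fold changes of 1.02 and 2.19).

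**Figure D2:**
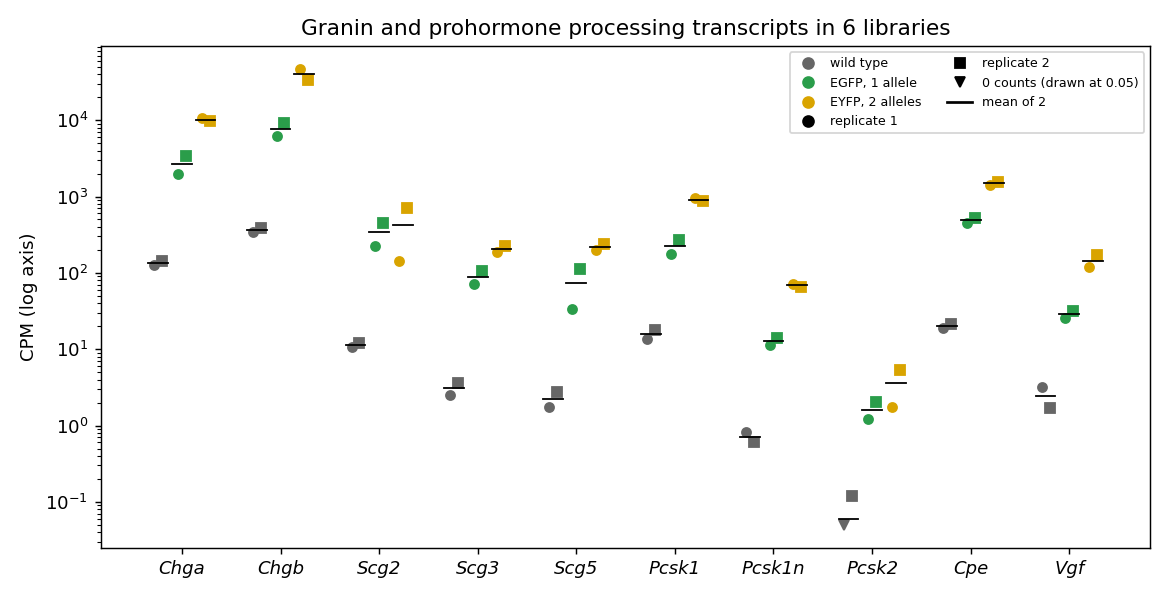
Each point is 1 library, with CPM on a log axis, genes along the horizontal axis, circles and squares for replicates 1 and 2 a triangle for 0 counts and a black line at the mean of 2. Wild-type points lie lowest for all 10 genes, and EGFP and EYFP points overlap only for Scg2 (143 to 706 CPM in EYFP) and Pcsk2 (1.76 to 5.38 CPM in EYFP).

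Other cell types moved between EYFP and EGFP cells as well, beside every rise described here. Goblet cell markers, 6 genes, summed to 56118 and 92968 CPM in EGFP, 681 and 1751 CPM in EYFP, and 5093 and 5891 CPM in wild type. Paneth cell markers, 5 genes, summed to 10866 and 12998 CPM in EGFP, 585 and 312 CPM in EYFP, and 10756 and 16715 CPM in wild type. The 4 tuft cell markers summed to 177 and 103 CPM in EGFP, 5.0 and 13.5 CPM in EYFP, and 19.9 and 83.1 CPM in wild type. The 13 endocrine lineage factors, with Neurog3 among them, summed to 800 and 941 CPM in EGFP and to 3929 and 3110 CPM in EYFP. The part of these shifts in the granin and convertase results was not tested. Enteric neurons also use granins, and 7 of their markers summed to 1.61 to 2.17 CPM in EGFP, 0.493 to 0.757 CPM in EYFP, and 0 to 1.81 CPM in wild type. Most of the sum in EGFP and in wild-type replicate 2 was Chat. It read 1.69 and 0.930 CPM in EGFP, 0 and 0.0841 CPM in EYFP, and 0 and 1.57 CPM in wild type. The tuft cell marker sum was likewise higher in EGFP than in EYFP, and higher in wild-type replicate 2 than in replicate 1. Whether Chat came from neurons or from tuft cells was not tested. Hand2 was at 0 in all 6 libraries. The 5 islet genes summed to 27.4 and 32.2 CPM in EGFP, 21.7 and 57.2 CPM in EYFP, and 10.7 and 6.03 CPM in wild type. Among them Ins1 and Ins2 were at 0 in every library but EGFP replicate 1, where they stood at 0.121 and 0.241 CPM. Iapp, also a gene of gut endocrine cells, stood at 20.0 and 21.1 CPM in EGFP and 8.03 and 43.2 CPM in EYFP and was higher than wild type in both. Pdx1, also a gene of duodenal epithelium, was at 6.75 and 11.1 CPM in EGFP, 13.7 and 14.0 CPM in EYFP, and 10.1 and 5.31 CPM in wild type. The part of neuronal and islet transcripts was not tested.

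Chga encodes chromogranin A, the granin used most widely as a marker of endocrine cells, and lies on chromosome 12 from 102554941 to 102565027 in mm10. It stood at 126 and 144 CPM in wild type, 1990 and 3357 CPM in EGFP, and 10628 and 9611 CPM in EYFP. The 3 groups did not overlap, and the EGFP libraries lay further apart than those of the other groups. EGFP cells exceeded wild type by 4.31 ± 0.36 on the log2 scale (edgeR adjusted p = 1e-04) and EYFP cells exceeded wild type by 6.23 ± 0.39 (edgeR adjusted p = 1.3e-05). The step from EGFP to EYFP was 1.92 ± 0.32 (edgeR adjusted p = 0.0036), a fold of 3.79 with a 95% interval of 2.25 to 6.37 from the edgeR fit.

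Chgb encodes chromogranin B, a granin that is abundant in the granule core, and lies on chromosome 2 from 132781642 to 132795079. Its levels were 345 and 388 CPM in wild type, 6279 and 9077 CPM in EGFP, and 47155 and 33106 CPM in EYFP. The groups again did not overlap, and each step was larger than the spread within a group. The log2 fold change was 4.39 ± 0.42 for EGFP against wild type, 6.78 ± 0.47 for EYFP against wild type and 2.39 ± 0.38 for EYFP against EGFP (edgeR adjusted p = 0.003). Without EGFP replicate 1 the last of these was 2.19 and the edgeR adjusted p was 0.0622. Per transcript length, as TPM (counts per base of transcript, scaled to 1000000 per library) over the 23343 genes with a length, Chgb ranked 1 and 2 in the EYFP libraries, 17 and 15 in the EGFP libraries, and 765 and 741 in wild type. Chga ranked 2 and 6 in EYFP, 58 and 25 in EGFP, and 1414 and 1333 in wild type on the same scale.

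Chgb transcript exceeded that of Chga in every library, per transcript length as well. The ratio of Chgb to Chga counts was 2.74 and 2.69 in wild type, 3.16 and 2.70 in EGFP, and 4.44 and 3.44 in EYFP. Both EYFP ratios lay above the others, with a gap to EGFP replicate 1 that was smaller than the gap between the EYFP libraries. That difference in ratio was not tested.

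Scg3 encodes secretogranin III, which binds chromogranin A and tethers the aggregate to the cholesterol-rich granule membrane, and between EYFP and EGFP it had the smallest rise among the genes that passed. It was at 2.50 and 3.62 CPM in wild type, 70.7 and 104 CPM in EGFP, and 186 and 227 CPM in EYFP. Every EYFP library was above every EGFP library, and wild type was near the floor. EYFP exceeded EGFP by 1.24 ± 0.23 on the log2 scale (edgeR adjusted p = 0.0061), or 2.36-fold (95% interval 1.62 to 3.42). The rise over wild type was 4.82 ± 0.28 in EGFP and 6.05 ± 0.30 in EYFP.

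Vgf encodes a granin-like precursor of several secreted peptides and was among the genes with the largest step between the sorted groups. Wild type held 3.16 and 1.69 CPM, EGFP 25.7 and 31.6 CPM, and EYFP 119 and 169 CPM. Its log2 fold change was 2.33 ± 0.27 between EYFP and EGFP (edgeR adjusted p = 0.0012), a fold of 5.02. Over wild type it had the smallest rise of the 10 genes in EGFP cells, 3.60 ± 0.32, and in EYFP cells it rose by 5.92 ± 0.34. The wild-type values rest on 38 and 28 counts.

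Scg2 encodes secretogranin II, the precursor of secretoneurin, and it was the granin with the widest spread between EYFP libraries. It was at 10.8 and 11.9 CPM in wild type and at 224 and 456 CPM in EGFP. EYFP replicate 1 held 143 CPM and EYFP replicate 2 held 706 CPM, which lie below and above both EGFP libraries. EYFP differed from EGFP by 0.32 ± 0.81 on the log2 scale (edgeR adjusted p = 0.79), a fold of 1.25 with a 95% interval of 0.280 to 5.57, so neither a fall nor a rise of several fold is outside it. The sign depended on the library: the log2 fold change was -0.03 without EGFP replicate 1 and -1.26 without EYFP replicate 2, and 1.05 without EYFP replicate 1 and 0.92 without EGFP replicate 2 (edgeR adjusted p from 0.0908 to 0.987). Its interval also holds the folds of the other granins, and the difference from them was not tested.

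Against wild type Scg2 was 4.90 ± 0.97 higher in EGFP (edgeR adjusted p = 0.017) and 5.22 ± 0.99 higher in EYFP (edgeR adjusted p = 0.0096), and both sorted groups stood above wild type in every library. The call in EGFP was lost without EGFP replicate 2 (log2 fold change 4.30, edgeR adjusted p = 0.0629), without wild-type replicate 1 (0.115) or 2 (0.122), and with no filter on low counts (0.0642). The call in EYFP was lost without wild-type replicate 1 or 2 (edgeR adjusted p of 0.0823 and 0.0799). That log2 fold change became 5.95 when EYFP replicate 1 was left out and 3.64 when EYFP replicate 2 was. Set against Chgb, the Scg2 count was 0.00302 of the Chgb count in EYFP replicate 1 and 0.0213 in EYFP replicate 2, below the 0.0308 to 0.0502 of the other 4 libraries.

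Pcsk1 encodes prohormone convertase 1/3, the convertase known for cutting proglucagon into GLP-1 in intestinal L cells, and lies on chromosome 13 from 75089420 to 75134861. It stood at 13.7 and 18.1 CPM in wild type, 179 and 271 CPM in EGFP, and 949 and 866 CPM in EYFP. The groups were well apart, with EYFP libraries within 1.10-fold of each other. EYFP exceeded EGFP by 2.01 ± 0.24 on the log2 scale (edgeR adjusted p = 0.001), 4.03-fold with a 95% interval of 2.73 to 5.95. The rise over wild type was 3.82 ± 0.27 in EGFP and 5.83 ± 0.29 in EYFP.

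Pcsk1n, the gene of the proSAAS inhibitor, had the largest fold between the sorted groups. It was at 0.833 and 0.603 CPM in wild type, 11.3 and 14.0 CPM in EGFP, and 72.0 and 64.7 CPM in EYFP. The spread within each sorted group was small beside the step, which was 2.43 ± 0.19 on the log2 scale (edgeR adjusted p = 0.00025; 5.38-fold, 95% interval 3.96 to 7.32). Pcsk1n exceeded wild type by 4.15 ± 0.26 in EGFP and 6.58 ± 0.26 in EYFP, where wild type rests on 10 counts in each library. The gene lies on the X chromosome, from 7919822 to 7924410, and its end overlaps Eras by 135 bases, a gene with 0 counts in all 6 libraries. Xist was high in both EGFP libraries and near 0 in both EYFP libraries, and the part of this in the Pcsk1n result was not tested. The ratio of Pcsk1n to Pcsk1 counts was 0.0634 and 0.0514 in EGFP and 0.0758 and 0.0747 in EYFP.

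Pcsk2 encodes prohormone convertase 2, the convertase of pancreatic alpha cells that yields glucagon, and it was scarce in every library. It had 0 and 2 counts in wild type, 10 and 24 counts in EGFP (1.21 and 2.03 CPM), and 25 and 64 counts in EYFP (1.76 and 5.38 CPM). EYFP replicate 1 lay between the EGFP libraries, so the groups overlapped. The annotated spans of noncoding genes overlap that of Pcsk2. Overlap of their exons was not checked and use of strand is not given, so whether reads were shared was not tested. Pcsk2os2 had 8 and 14 counts in EGFP, 2 and 47 counts in EYFP, and 1 count in each wild-type library. The log2 fold change between EYFP and EGFP was 1.11 ± 0.68 (edgeR adjusted p = 0.24; 2.15-fold, 95% interval 0.724 to 6.40), and without EYFP replicates 1 and 2 it was 1.71 and 0.10.

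Relative to the 2 wild-type counts, the Pcsk2 level was 24.2-fold higher in EGFP (95% counting interval 6.19 to 208) and 48.8-fold higher in EYFP (13.1 to 409), with intervals that cover counting error only. Both comparisons passed (edgeR adjusted p = 0.011 and 0.0019), but that of EGFP was lost without EGFP replicate 2 (edgeR adjusted p = 0.0626). The fitted log2 fold change moved with single libraries: that of EYFP, 5.50, became 6.09 and 4.49 without EYFP replicates 1 and 2, and 4.77 without wild-type replicate 1. That of EGFP, 4.39, became 3.66 without wild-type replicate 1 (edgeR adjusted p = 0.0496). Without wild-type replicate 2 no wild-type count remained and the fitted value has no meaning as a fold. With wild-type replicate 1 alone, which had 0 counts, Pcsk2 was at least 6.48-fold higher in EGFP and at least 14.3-fold higher in EYFP, from a floor of 3 counts in that library. Per transcript length, Pcsk2 was at 0.50 and 0.762 TPM in EGFP and 0.939 and 2.84 TPM in EYFP, against 69.5 and 97.4 TPM for Pcsk1 in EGFP and 480 and 428 TPM in EYFP. Pcsk1 exceeded Pcsk2 on this scale in all 4 sorted libraries.

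Scg5, the gene of the chaperone of the Pcsk2 product, was more abundant than Pcsk2 per transcript length in every library. It stood at 1.75 and 2.71 CPM in wild type, 33.8 and 113 CPM in EGFP, and 201 and 240 CPM in EYFP. All EYFP libraries were above all EGFP libraries, while the EGFP libraries differed 3.34-fold from each other. Its log2 fold change between EYFP and EGFP was 1.58 ± 0.56 (edgeR adjusted p = 0.086; 3.0-fold, 95% interval 1.10 to 8.15). It passed without EGFP replicate 1 (log2 fold change 1.02, edgeR adjusted p = 0.0356), without EGFP replicate 2 (2.70, edgeR adjusted p = 0.00189) and with the replicate number as a block (1.79, edgeR adjusted p = 0.0198). With 1 EGFP library left out, the gap between the EGFP libraries is gone from the fit, and the lone library is assumed to vary like the other groups. The edgeR adjusted p was 0.154 with only the 4 libraries compared, 0.235 with no filter on low counts, and 0.2 and 0.264 without EYFP replicates 1 and 2. Over wild type Scg5 had the largest rise of the 10 genes in EGFP cells, 5.01 ± 0.71 (edgeR adjusted p = 0.0041), which was 5.73 and 3.89 without EGFP replicates 1 and 2, and it rose by 6.59 ± 0.74 in EYFP cells.

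Cpe, the gene of the carboxypeptidase that trims the ends left by the convertases, had the least spread of the 10 genes in EGFP cells. It was at 18.7 and 21.6 CPM in wild type, 449 and 522 CPM in EGFP, and 1430 and 1568 CPM in EYFP. The 2 libraries of each group lay close together and the groups far apart. EYFP exceeded EGFP by 1.63 ± 0.19 on the log2 scale (edgeR adjusted p = 0.00087; 3.09-fold, 95% interval 2.28 to 4.18), and the rise over wild type was 4.59 ± 0.22 in EGFP and 6.21 ± 0.23 in EYFP. Cpe lies on chromosome 8 from 64592542 to 64693109. Per transcript length it ranked 50 and 36 among all genes in the EYFP libraries.

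**Figure D3:**
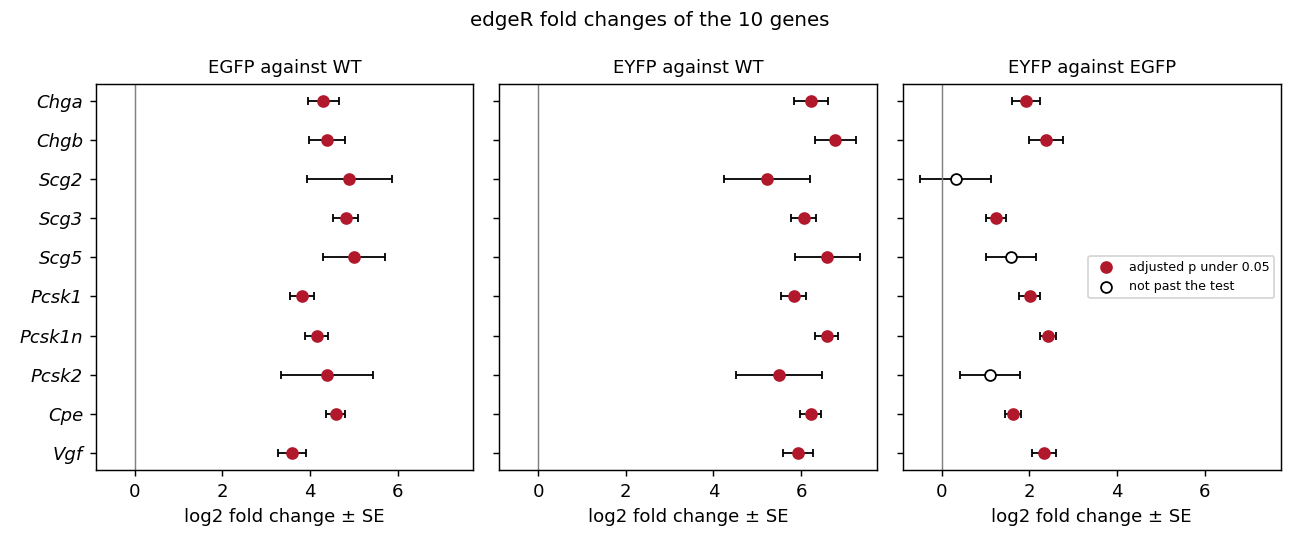
Points give the edgeR log2 fold change of each gene and bars its SE, with 1 panel per comparison on a common axis, red points past the test and open points not. All 10 points are red against wild type (WT), and Scg2 (0.32), Scg5 (1.58) and Pcsk2 (1.11) are open between EYFP and EGFP.

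Scg2, Scg5 and Pcsk2, which did not pass between the sorted groups, had the largest gaps between 2 libraries of one group. All 10 genes were higher in EGFP replicate 2 than in EGFP replicate 1, by a median of 0.58 on the log2 scale against 0.00 over all genes tested. The gap was largest for Scg5 (1.73), larger than for all but 1.71% of genes. In EYFP the gap between replicates was 2.31 for Scg2 and 1.53 for Pcsk2, and 0.718% and 2.12% of genes had a larger one. For the other 8 genes it ran from -0.51 (Chgb) to 0.51 (Vgf). Of 12 prohormone genes tested, 6 were more than 2-fold higher in EYFP replicate 2 and 1, Gal, was more than 2-fold lower, against 2 of the 10 granin and processing genes and 4.02% of all genes more than 2-fold higher. Gip, the precursor of the incretin GIP, was at 2039 and 11598 CPM in EYFP replicates 1 and 2, and neurotensin (Nts) at 78.3 and 494 CPM. The immune marker Lyz2 read 207 CPM in EYFP replicate 1 against 0.168 CPM in EYFP replicate 2, and its part was not tested.

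**Figure D4:**
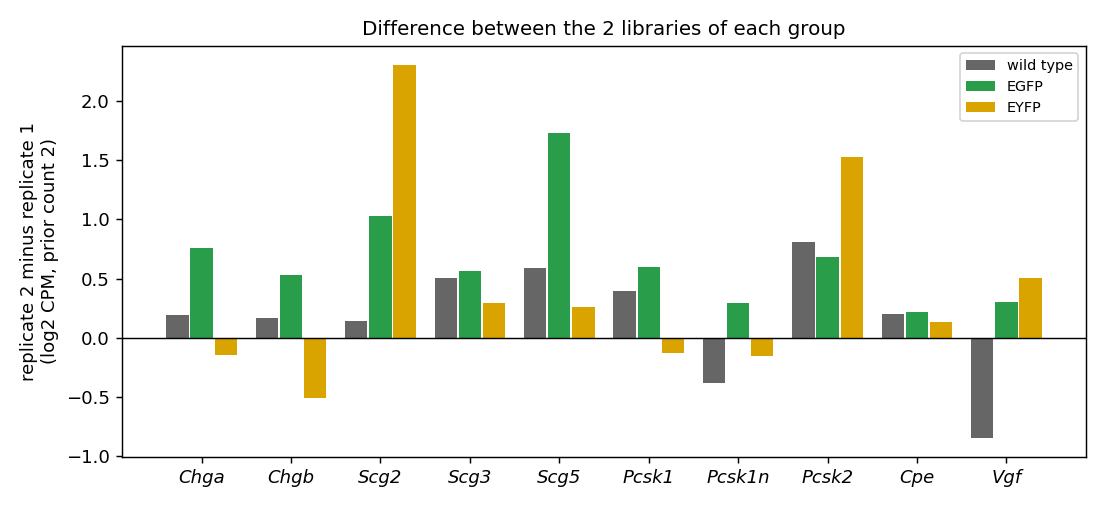
Bars give replicate 2 minus replicate 1 in log2 CPM with a prior count of 2, for each gene and group. The tallest bars are Scg2 (2.31) and Pcsk2 (1.53) in EYFP and Scg5 (1.73) in EGFP, and every EGFP bar is above 0.

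No further convertase was called higher in EYFP cells than in EGFP cells among those listed. Of 6 convertases listed besides Pcsk1 and Pcsk2, 0 were higher in EYFP than in EGFP, 2 were lower (Pcsk5 and Pcsk7) and 4 did not pass. Of all genes, 19.4% were called lower. Pcsk4 was 1.71-fold higher without passing (edgeR adjusted p = 0.078), with both EYFP libraries above both EGFP libraries. Pcsk5, a convertase of growth factor precursors, was at 38.0 and 33.1 CPM in EGFP, 11.8 and 16.2 CPM in EYFP, and 255 and 297 CPM in wild type. Its log2 fold change was -1.34 ± 0.19 between EYFP and EGFP (edgeR adjusted p = 0.0019). Against wild type 4 of the 6 were lower in EGFP (Furin, Pcsk4, Pcsk5 and Pcsk6) and 3 in EYFP (Furin, Pcsk5 and Pcsk6), with 0 higher in either, where 21.9% and 33.5% of all genes were called lower. Pcsk6, a convertase known for activating secreted growth factors, fell by 3.41 ± 0.45 in EGFP and by 4.35 ± 0.47 in EYFP on the log2 scale.

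The enzymes that trim and modify the cut peptides included members that rose and 1 that fell. Of 11 listed, Cpz had 0 counts in all 6 libraries and 10 were tested. Between EYFP and EGFP, 4 were higher (Pam, Ctsl, Tpst1 and Tpst2), Cpd was lower and 5 did not pass, beside 16.8% of all genes called higher and 19.4% lower. Pam, which amidates the ends of many gut peptides, went from 118 and 147 CPM in EGFP to 502 and 478 CPM in EYFP, with 12.3 and 15.9 CPM in wild type (EYFP against EGFP 1.88 ± 0.18, edgeR adjusted p = 5e-04). Cpd, a carboxypeptidase of the trans-Golgi network in most cells, fell by 1.15 ± 0.14. Tpst1, a tyrosine sulfotransferase of the Golgi, had the largest rise of the list over wild type, 4.27 ± 0.28 in EGFP and 5.86 ± 0.28 in EYFP. In each comparison with wild type 7 of the 10 were higher and 0 lower, beside 19.6% (EGFP) and 27.1% (EYFP) of all genes called higher.

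Of 10 genes of the granule membrane and of granule biogenesis that were tested from a list of 11, 6 were higher in EYFP than in EGFP (Ptprn, Ptprn2, Ica1, Slc18a1, Slc18a2 and Scgn), 0 were lower and 4 did not pass, with a median log2 fold change of 1.24, beside 16.8% of all genes called higher. Among those not past, Hid1 (0.758-fold) and Nucb2 (0.675-fold) were lower in both EYFP libraries than in both EGFP libraries. Slc18a1, which loads monoamines such as serotonin into granules, stood at 71.2 and 127 CPM in EGFP and 353 and 323 CPM in EYFP (1.77 ± 0.32, edgeR adjusted p = 0.0068). The zinc transporter gene Slc30a8, known from islet granules, had too few counts to be tested, with at most 0.252 CPM in any library. Against wild type 9 of the 10 were higher and 1, Ccdc186, was lower in each sorted group, where 19.6% and 27.1% of all genes were called higher. Scgn, which encodes the calcium sensor secretagogin, rose most, by 5.18 ± 0.22 in EGFP and 6.76 ± 0.23 in EYFP.

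Of 12 prohormone genes tested from a list of 14, 3 were higher in EYFP than in EGFP (Gcg, Tac1 and Ucn3), 0 were lower and 9 did not pass, with a median log2 fold change of 0.94, beside 16.8% of all genes called higher. Tac1, the precursor of substance P, had the largest of these rises at 2.45 ± 0.29 (edgeR adjusted p = 0.00097). All 12 lineage factors tested of 13 were higher, with a median of 2.08, and Mnx1 had the largest rise at 2.69 ± 0.39. These factors include Neurog3, whose reporter was used for the sort. Against wild type all 12 prohormones and all 12 factors were higher in both sorted groups (19.6% and 27.1% of all genes). Among the prohormones, the call of Gal in EGFP rests on only 2 and 8 counts, beside 0 in both wild-type libraries. Ghrl, the ghrelin gene, rose most among the prohormones in EGFP (6.02 ± 0.34), and Isl1 among the factors (4.70 ± 0.17). In EYFP it was Fev among the factors, at 314 and 160 CPM against 1.58 and 1.87 CPM in wild type, and among the prohormones with counts in wild type it was Tac1 (7.36 ± 0.37). Gal had 0 counts in both wild-type libraries and 2.68 and 1.09 CPM in EYFP, so its fitted fold is not ranked.

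**Figure D5:**
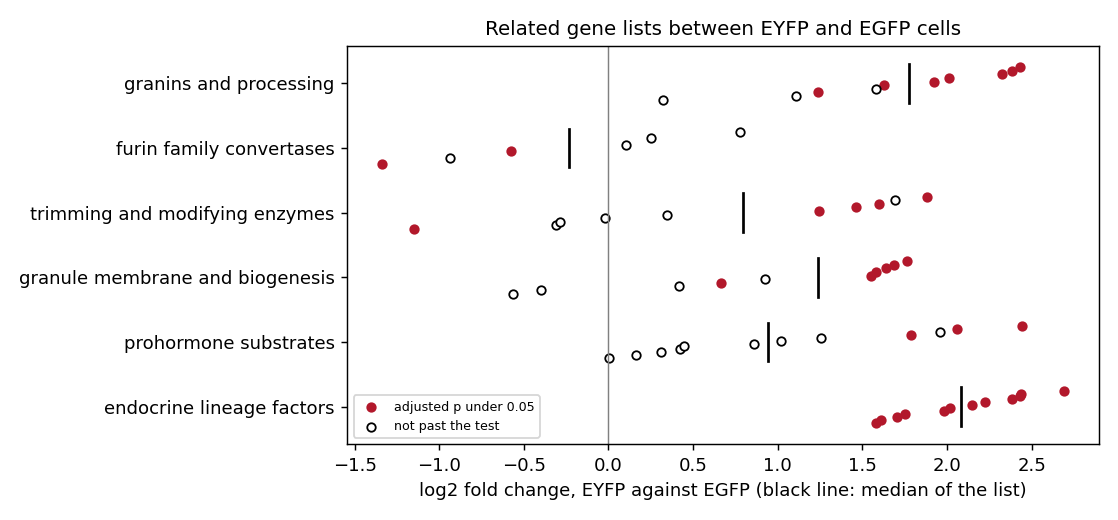
Each point is 1 gene at its edgeR log2 fold change of EYFP against EGFP, in 6 rows by gene list, with red points past the test, open points not, and a black line at the list's median. The medians lie at 1.77 for granins and processing, -0.24 for the furin family, 0.80 for trimming enzymes, 1.24 for granule membrane genes, 0.94 for prohormones and 2.08 for lineage factors.

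Among themselves the 10 genes ran from close to distant profiles. Profiles of log2 CPM, centred over the 6 libraries, lay closest together for Scg3 and Cpe, with a root mean square distance of 0.21, and for Chga and Pcsk1, at 0.22. They were furthest apart for Chgb and Scg2, at 1.33. From the mean profile of the 10 genes, Chga, Scg3, Pcsk1 and Cpe were at distances of 0.23 to 0.27, Pcsk1n, Vgf, Scg5 and Chgb at 0.40 to 0.47, and Scg2 and Pcsk2 at 0.89 and 0.87. The 5 genes outside the set with the smallest distance to that mean over the 6 libraries were Rgs17 (0.11), Kcnb2 (0.11), Gjd2 (0.13), Tpst1 (0.13) and Tmigd3 (0.15). Rgs17 is a regulator of G protein signalling, Kcnb2 a voltage-gated potassium channel and Gjd2 a gap junction protein of neurons and beta cells. Kcnb2 stood at 0.583 and 0.543 CPM in wild type, 11.1 and 15.6 CPM in EGFP, and 37.8 and 43.1 CPM in EYFP, a stepwise order like that of Cpe. Gjd2 had 0 counts in both wild-type libraries and was at least 24.9-fold higher in EGFP and at least 78.8-fold higher in EYFP, taking 3 counts across both wild-type libraries as the floor. These likenesses rest on 6 libraries in 3 groups and are given as a description.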

How the data were processed

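RNA was isolated with the RNeasy Micro kit, made into TruSeq libraries and sequenced (HiSeq2000, single-end, 50 bases), per the labels' protocols. Tools named by the submitters' processing notes are RSEM (1.3.1), Bowtie2, FastQC (0.11.8) and DESeq2 (1.26.0), with the mm10 build. Settings and use of strand: not given in the sources used here. Estimated counts per gene were deposited by the authors and rounded to whole numbers here. The authors' deposited table also holds a signal, which was the count, with its decimals dropped, over a library-wide size factor (100% of 14608 genes within 0.01 counts). Its linear fold and adjusted p-value per comparison are printed only as the authors' deposited values, with the folds against wild type inverted.

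Genes were filtered with filterByExpr, scaled by TMM and tested with edgeR 4.0.16 (quasi-likelihood F test, robust) in 1 model of 3 group means over 6 libraries (3 residual degrees of freedom), with Benjamini-Hochberg adjustment over 13935 genes at 0.05. The fit gave a biological coefficient of variation of 19.8%. Each SE was derived from the F value. The script was tested on simulated data. Transcript lengths came from GENCODE M21 by RefSeq accession (97.9% of genes) and coordinates from RefSeq GRCm38.p6, the assembly of mm10. Alternatives were the Wald test of DESeq2 1.42.0, its size factors in edgeR, TMM without the 50 genes of highest count, no filter on low counts, a filter of 10 counts in each library of 1 group, only the 4 libraries compared, a replicate block, and leaving out each library. The members and gene lists were chosen with earlier results of these data known. Named genes were the 10 members, Neurog3, the largest rise and fall past the test in each list and comparison, and the 5 nearest profiles. Others, such as Gip, Nts, Slc30a8 and Lyz2, were chosen after their values were seen. A gene of the convertase list and a neuronal marker are not reported here and are left out of those lists' counts, sums and medians.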

Additional observations from a re-analysis of the deposited data

How the results depend on the processing

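The number of the 10 genes higher in EYFP than in EGFP was 7 or 8 under all alternatives run, and without 1 library it ran from 7 to 8. Against wild type it was 9 or 10 in each setting that kept all libraries, and without 1 library it ran from 8 to 10 in EGFP and from 9 to 10 in EYFP. Over all genes the number past the test between EYFP and EGFP was 5045, and without 1 library it ran from 2392 (EGFP replicate 1) to 5483 (wild-type replicate 2), with 2737 without EYFP replicate 1 and 2932 without EYFP replicate 2. Equal numbers of the 10 genes do not mean the same genes. Between EYFP and EGFP the calls of both Chgb and Scg5 changed when EGFP replicate 1 was left out. In single genes, 2 values changed sign, both of Scg2 between EYFP and EGFP: -0.03 without EGFP replicate 1 and -1.26 without EYFP replicate 2. Without EGFP replicate 2 and EYFP replicate 1 that value was 0.92 and 1.05. The cause was not tested. With the replicate block, the counts past the test were 8, 10 and 10 of the 10 genes for EYFP against EGFP, EGFP against wild type and EYFP against wild type. The labels do not say that a replicate number marks a shared animal or day. The gaps between replicates 1 and 2 correlated across genes at 0.02 (EGFP with EYFP), 0.10 (EGFP with wild type) and 0.01 (EYFP with wild type). DESeq2 size factors moved the median of all genes between EYFP and wild type from -0.12 to -0.01 on the log2 scale, and the lowest of the 10 genes from 5.22 to 5.34. Depth limits Pcsk2 and Pcsk1n most, with 0 to 10 counts in a wild-type library.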
